A study of Rattus norvegicus with 39 samples.

Results

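The libraries described here are the HA-tag immunoprecipitates (IP) of D2-Cre female rats that were treated in proestrus, 9 of the 39 libraries of the series. They were chosen by their titles and compare repeated ketamine (4 libraries, numbers 6, 22, 30 and 38) with saline (5 libraries, numbers 5, 13, 21, 29 and 37), each library from 1 rat. All 9 rats were heterozygous Long-Evans Drd2-iCre females that carried a Cre-inducible AAV RiboTag vector in the nucleus accumbens (NAc), so that HA-tagged ribosomes formed in infected cells that express Cre. Ketamine rats had received 6 intraperitoneal injections of 10 mg/kg racemic ketamine, 1 every 4 days or occasionally every 5 days and each in proestrus, and saline rats had received the vehicle on the same schedule. The NAc was punched (2 mm, from 200 µm sections) 4 days after the last session, when all 9 rats had spent 30 min in the test chamber without drug. Ketamine rats had been chosen for sequencing because their locomotor activity increased over the sessions, which saline rats were not, and the authors excluded 1 further ketamine library after a principal component analysis. The question was which ribosome-bound mRNAs of D2 medium spiny neurons (MSNs) differ after repeated ketamine in this cycle stage.

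D2-MSNs are the GABAergic projection neurons of the striatum that carry the dopamine D2 receptor, which lowers cAMP, and the adenosine receptor encoded by Adora2a, which raises it, and they form the indirect pathway to the ventral pallidum. Ketamine blocks the NMDA type of glutamate receptor. Proestrus is the day of the rat cycle on which estradiol and then progesterone peak. RiboTag recovers mRNA bound to tagged ribosomes, so a level reflects both the amount of an mRNA and how much of it is being translated. The D2 receptor is also made by cholinergic interneurons, which a Drd2-driven Cre can tag.

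Total counts ran from 17320637 to 24174723 in 8 of the 9 libraries and reached 43224256 in ketamine library 22. Log-scaled profiles of the libraries correlated at 0.977 to 0.991 across 13410 genes, with a median of 0.985 within groups and 0.986 between groups, and the first principal component (27.2% of the variance) ran from library 21 (saline) to library 38 (ketamine) with both treatments on either side of its middle. Gene names were paired with 1966 of 23978 identifiers, 1520 of them among the genes tested, so most genes could be counted but not named, and Drd2, Penk, Drd1 and the NMDA receptor subunits Grin1, Grin2a and Grin2b are among those not analysed here.

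The labelled cell type was checked with Adora2a, the D2-MSN marker that could be paired. Its level was 776 to 1063 CPM (counts scaled by library size, with factors set over all 39 libraries) in the 9 proestrus D2 libraries and 147 to 206 CPM in the 10 proestrus D1 libraries, so the 2 cell types did not overlap. In IP from bulk tissue, fewer cells of a type and less RNA per cell cannot be told apart. The 3 paired genes common to all MSNs (Gad1, Rgs9 and Adcy5) summed to 2190 to 2310 CPM with saline and 2056 to 2230 CPM with ketamine. The interneuron genes Sst and Nos1 summed to 72.5 to 290 CPM with saline and 121 to 247 CPM with ketamine, a spread wider than the difference between the groups. Markers of glial and vascular cells summed to less than the 3 MSN genes in every library. These are sums of different genes, with only part of each list paired, so they do not measure shares of cells. The 4 astrocyte genes (Gfap, Gja1, S100b and Sox9) summed to 215 CPM in saline library 21 and 175 CPM in ketamine library 6, against 116 to 143 CPM in the other 7 libraries. The same 2 libraries ranked first and second for the 3 oligodendrocyte genes (370 and 315 CPM, others 164 to 223), the 2 endothelial and mural genes (13.9 and 11.0 CPM, others 4.14 to 7.83) and the 2 microglial genes (3.5 and 3.22 CPM, others 1.41 to 2.25). One of these libraries lies in each treatment group, and the counts of genes called in proestrus D2 and by the interaction with cell type are given below with and without both.

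**Figure D1:**
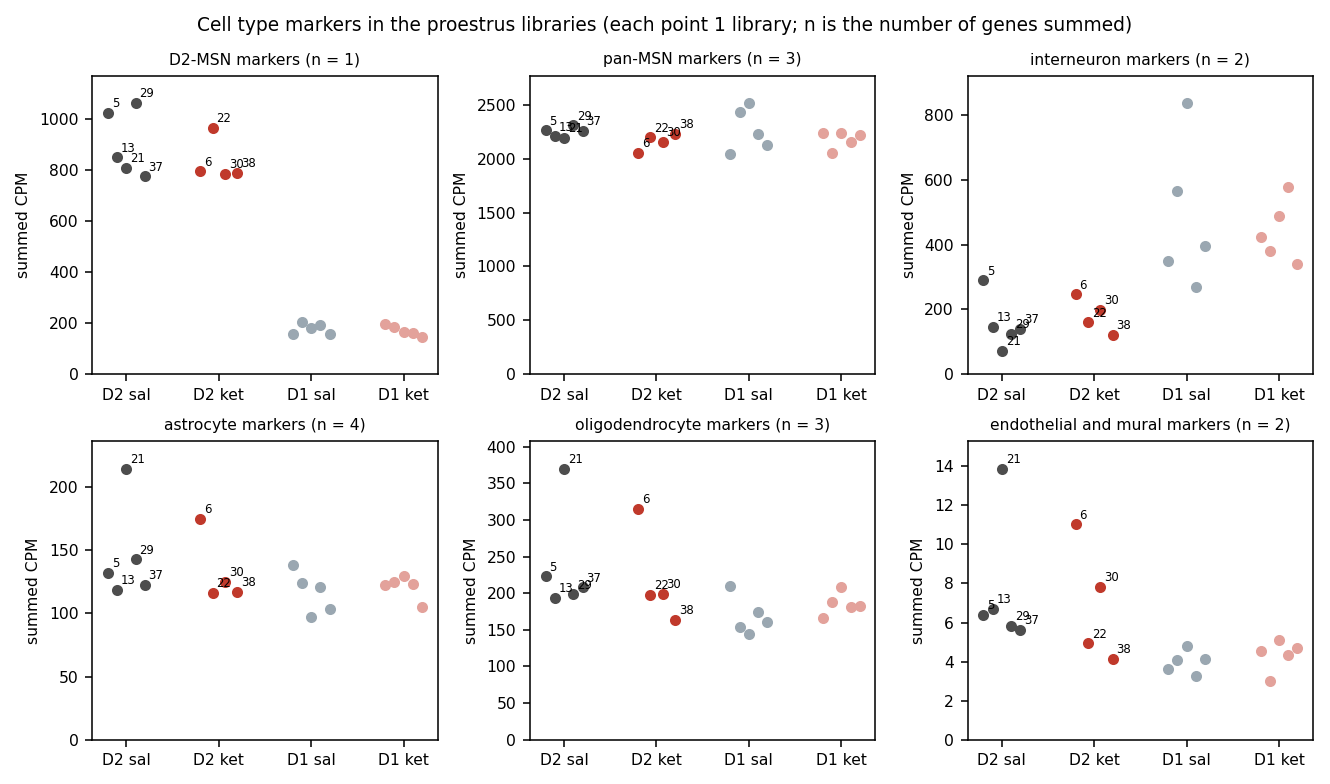
Summed CPM (y axis) of paired marker genes in the proestrus libraries, 1 point per library, by cell type and treatment (x axis), with library numbers beside the D2 points. The D2-MSN marker Adora2a separates D2 (776 to 1063 CPM) from D1 libraries (147 to 206 CPM), and libraries 21 and 6 lie highest for the glial and vascular markers.

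Between ketamine and saline 1 gene was called, and the call depended on the model fitted. Among the 13414 genes that edgeR's quasi-likelihood model covered, with 2 surrogate variables to absorb unlabelled variation, 1 passed an adjusted p of 0.1 (0.00745% of the genes), and it was higher with ketamine. No gene with a symbol was called and none was called lower, while 450 genes (3.35%) had an unadjusted p under 0.05, 207 (1.54%) of them higher and 243 (1.81%) lower with ketamine. DESeq2 with 2 surrogate variables also called 1 gene, and it was the same gene. Without surrogate variables edgeR called 0 genes, with 470 at an unadjusted p under 0.05, and DESeq2 called 0. Without libraries 6 and 21 edgeR also called 0 genes, with 633 at an unadjusted p under 0.05. Without ketamine library 22 it called 0, with 1275 at that p. With blocks of 8 neighbouring library numbers in place of surrogate variables it called 0, with 1227 at that p, 690 of them higher and 537 lower.

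The gene called is ENSRNOG00000050233, which was not among the identifiers paired with a symbol. Its level was 7.93, 8.73, 13.0, 12.5 and 8.21 CPM in saline libraries 5, 13, 21, 29 and 37, and 14, 20.3, 10.8 and 10.9 CPM in ketamine libraries 6, 22, 30 and 38. Each ketamine library lay above the saline mean of 10.1 ± 2.45 CPM (SD, n = 5), yet the groups overlapped, since saline libraries 21 and 29 were above ketamine libraries 30 and 38. Saline libraries 21 and 29 also had the 2 highest scores on the first surrogate variable (0.429 and 0.473). The fitted log2 fold change was 0.84 (SE 0.11, 95% interval 0.61 to 1.08, edgeR adjusted p = 0.0689), and it was 0.71 with 1 surrogate variable and 0.48 with none (adjusted p = 0.980 and 0.914). An exact 2-sided permutation test on the CPM gave p = 0.143 (4 against 5 libraries, smallest possible 0.0159). Leaving out any 1 library other than ketamine library 6 ended the call, with adjusted p from 0.154 to 0.846 and log2 fold changes from 0.56 to 0.89. The lowest fold change came without ketamine library 22, the deepest of the 9.

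The number of genes called can be read against how closely the differences were measured. The median SE of a log2 fold change was 0.0917 and the median half-width of its 95% interval 0.200. For 10353 genes (77.2%) the interval lay wholly between a 1.5-fold decrease and a 1.5-fold increase, and for 12148 (90.6%) within 2-fold. Precision followed the level, with 8833 of 9042 genes (97.7%) at a mean of 10 CPM or more bounded within 1.5-fold, 1520 of 3473 (43.8%) between 1 and 10 CPM, and 0 of 899 under 1 CPM. The median size of the fitted log2 difference was 0.0652 over all genes and 0.0484 over those at 10 CPM or more. All intervals come from the fit with 2 surrogate variables, whose biological coefficient of variation was 0.0878 against 0.138 without them. They are for each gene singly and are not adjusted for the number of genes. The surrogate variables were estimated from the same 9 libraries, and the intervals take them as known. For ENSRNOG00000050233, Mx2, Igfbp7 and Gabrb2 the log2 fold change without surrogate variables (0.48, 0.083, 0.063 and 0.16) lay outside the interval. For Zfp68 and Il3ra (−0.18 and 0.63) it lay inside. The shares bounded within 1.5-fold and 2-fold therefore hold for that fit only.

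The 3 other genes given by identifier are those of lowest p without a symbol, 1 more on the higher side and 2 on the lower side. ENSRNOG00000029886 had 9.20 ± 2.85 CPM with saline and 11.2 ± 4.58 CPM with ketamine, with a log2 fold change of 0.64 with surrogate variables (SE 0.13, edgeR adjusted p = 0.999) and 0.29 without. ENSRNOG00000021732 had 36.0, 33.4, 30.9, 33.7 and 34.6 CPM in the saline libraries and 30.6, 27.6, 28.8 and 28.7 CPM in the ketamine libraries. Every ketamine library was below every saline library for that gene, and its log2 fold change was −0.27 (SE 0.061, edgeR adjusted p = 0.999). ENSRNOG00000065214 was listed at 0 in saline libraries 13, 21 and 29 and in ketamine libraries 6 and 22, and at 1.27, 2.30, 1.04 and 1.41 CPM in libraries 5, 37, 30 and 38. Both groups thus held libraries with and without it, and its exact permutation p was 1, while the model with 2 surrogate variables fitted a log2 fold change of −8.62 (edgeR adjusted p = 0.118) and the model without them −0.25, so no size is read from that fit.

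Of the genes with a symbol, those with the lowest p in each direction are given by their values, since none passed the adjusted threshold (edgeR adjusted p = 0.999 for each). They were picked by their p in this comparison, so their differences are descriptions. The 10 on the higher side range from 0.746 to 169 CPM in group means and from 0.11 to 0.95 in log2 fold change. Il3ra, the alpha subunit of the interleukin-3 receptor, had 1.86, 3.36, 3.20, 2.67 and 1.95 CPM with saline and 3.95, 3.40, 3.81 and 5.15 CPM with ketamine. The groups did not overlap, by a margin of 3.40 against 3.36 CPM, and the log2 fold change was 0.69 (SE 0.25, 95% interval 0.14 to 1.24). Amz2, a metallopeptidase of the archaemetzincin family, had 152 to 161 CPM with saline and 162 to 173 CPM with ketamine, again without overlap, at a log2 fold change of 0.11 (SE 0.041). Its 95% interval ran from 0.023 to 0.20. LOC498154 had 16.4 ± 1.44 CPM (n = 5) and 18.2 ± 0.446 CPM (n = 4), with 4 of 4 ketamine libraries above the saline mean but below saline library 21 (18.8 CPM), and with log2 fold changes of 0.23 with and 0.15 without surrogate variables.

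For the 7 other genes on the higher side the log2 fold changes with and without surrogate variables are given in that order. Mx2, an interferon-induced dynamin-like GTPase, had 7.19, 5.37, 12.9, 13.2 and 4.25 CPM with saline and 7.03, 13.3, 8.24 and 7.58 CPM with ketamine. The group means were 8.59 and 9.03 CPM, and its log2 fold change was 0.71 with surrogate variables and 0.083 without. Ripk4, a receptor-interacting protein kinase, had 3.37 ± 1.55 and 4.30 ± 1.55 CPM, with log2 fold changes of 0.87 and 0.36. Igfbp7, a secreted protein that binds insulin-like growth factors, had 18.6 ± 4.05 and 19.4 ± 5.54 CPM, with 0.29 and 0.063. Pi16, a secreted peptidase inhibitor, had 24.1 ± 3.54 and 26.5 ± 1.92 CPM, with 0.29 and 0.14. Rasl11b, a small Ras-like GTPase, had 39.4 ± 3.16 and 43.5 ± 6.28 CPM, with 0.24 and 0.14. Rnf5, a ubiquitin ligase of the endoplasmic reticulum membrane, had 68.2 ± 5.49 and 71.2 ± 7.16 CPM, with 0.15 and 0.066. Hsf2bp, a binding partner of heat shock factor 2, was the least abundant at 0.746 ± 0.244 and 1.22 ± 0.578 CPM, with log2 fold changes of 0.95 and 0.71, and the interval of the first was the widest of the 10 (0.23 to 1.68).

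**Figure D2:**
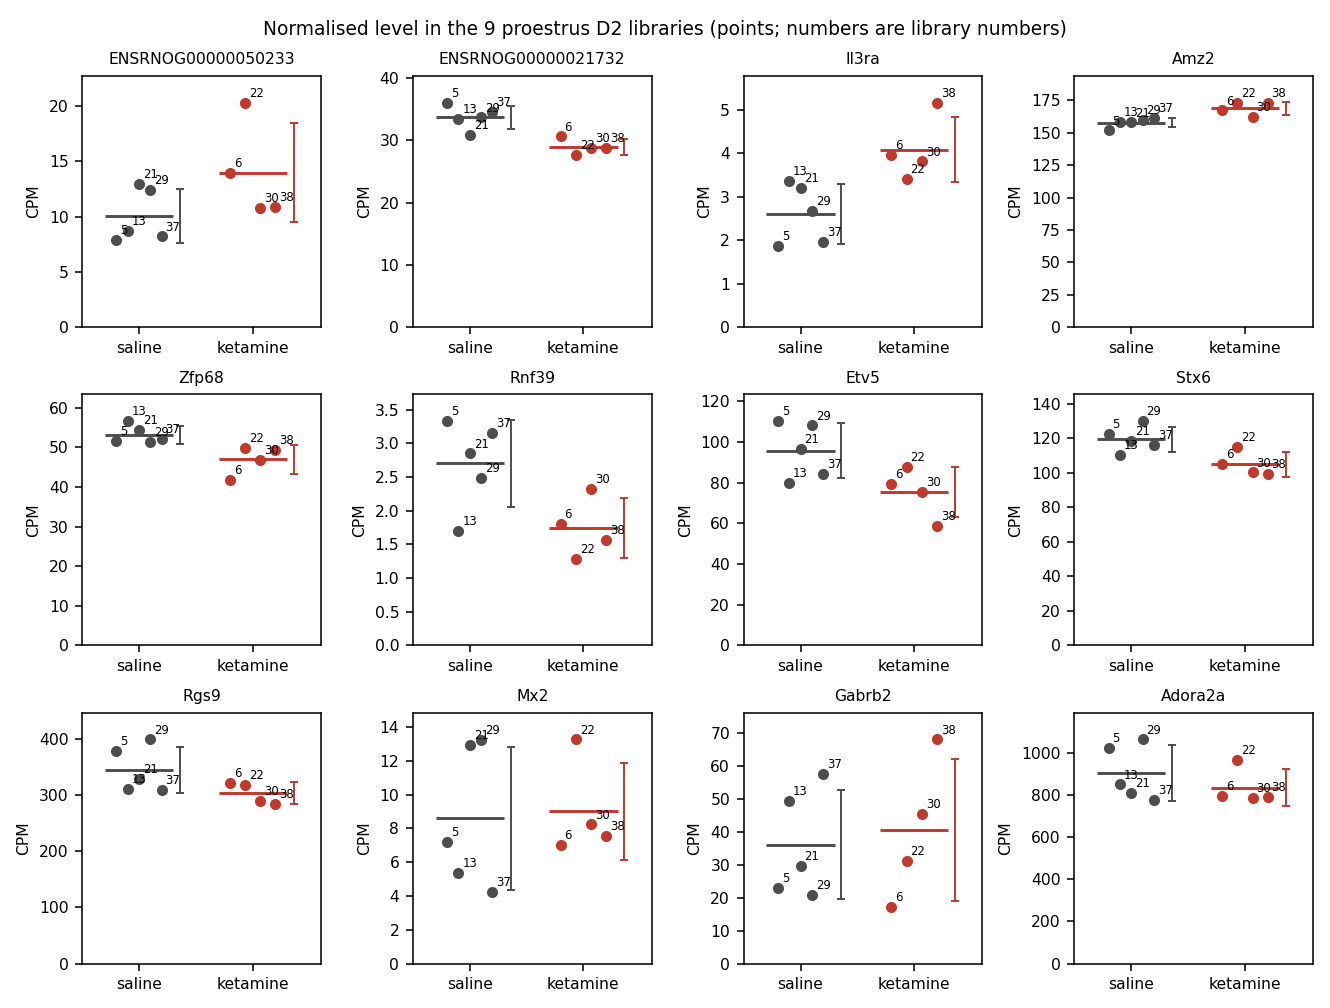
CPM (y axis, from 0) of 12 named genes in each of the 9 proestrus D2 libraries by treatment (x axis), with library numbers, the group mean (horizontal bar) and the SD (bar at the right of each group). Groups do not overlap for ENSRNOG00000021732, Il3ra, Amz2 and Zfp68 and overlap for the other 8 genes, among them the gene called, ENSRNOG00000050233.

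On the lower side, Zfp68, a zinc finger protein, had 51.6, 56.6, 54.3, 51.4 and 52.1 CPM with saline and 41.8, 49.8, 46.8 and 49.4 CPM with ketamine. All 4 ketamine libraries were below all 5 saline libraries, and the log2 fold change was −0.17 with surrogate variables and −0.18 without (SE 0.058 in the first fit). Etv5, an ETS transcription factor that acts downstream of fibroblast growth factor and ERK signalling, had 110, 79.7, 96.5, 108 and 84.3 CPM with saline and 79.4, 87.8, 75.3 and 58.7 CPM with ketamine. Its log2 fold changes were −0.23 (SE 0.083) and −0.34, and 3 of 4 ketamine libraries lay below the lowest saline library. Rnf39, a RING finger protein encoded in the major histocompatibility complex (MHC), had 2.70 ± 0.646 and 1.74 ± 0.440 CPM, with an interval from −1.40 to −0.12 around −0.76. RGD1304622 had 9.05 ± 2.64 and 5.89 ± 2.74 CPM, with −0.53 and −0.62. Qsox1, an oxidase that forms disulfide bonds in secreted proteins, had 44.1 ± 4.07 and 37.3 ± 7.90 CPM and log2 fold changes of −0.35 and −0.24, with 3 of 4 ketamine libraries below the lowest saline library and library 6, at 48.5 CPM, above all saline libraries but 13.

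RT1-S3, an MHC class I gene, had 4.54 ± 1.19 and 3.61 ± 0.468 CPM, with log2 fold changes of −0.58 and −0.33. Arhgef6, an exchange factor for Rac and Cdc42, had 9.59 ± 1.85 and 8.88 ± 1.43 CPM, with −0.35 and −0.12. Opa1, a GTPase that fuses inner mitochondrial membranes, had 119 ± 9.29 and 111 ± 15.1 CPM, with −0.13 and −0.10. Sobp had 44.3 ± 4.45 and 42.2 ± 3.48 CPM, with −0.17 and −0.069. In the plot of fold changes, Zfp68, Amz2 and Il3ra have their filled and open points close together, so that their differences changed little with the surrogate variables.

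**Figure D3:**
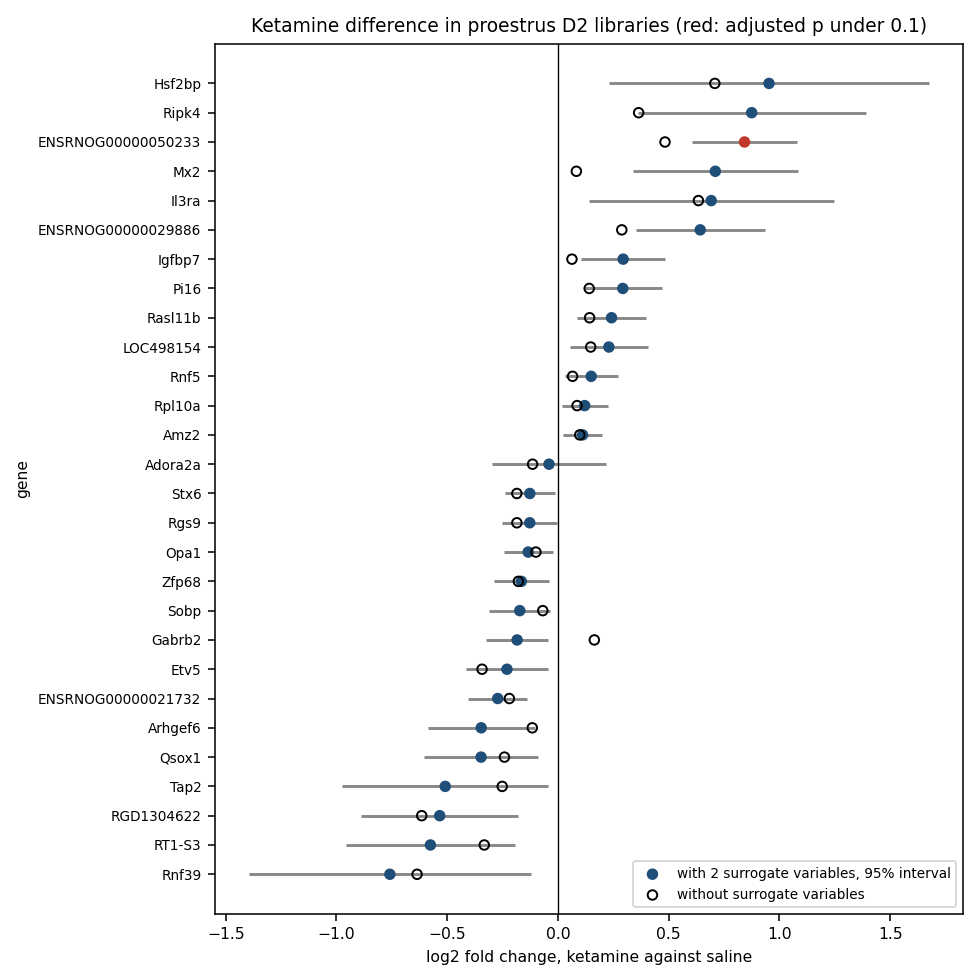
Log2 fold change, ketamine against saline (x axis), of the named genes (y axis) in the 9 proestrus D2 libraries, with 2 surrogate variables (filled points, lines are 95% intervals) and without (open points). ENSRNOG00000050233, in red, is the only gene of these at an adjusted p under 0.1, and for Gabrb2 the open and filled points lie on opposite sides of 0; ENSRNOG00000065214 is left out because its fit gives no usable size.

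Over all 13414 genes, every ketamine library lay above every saline library for 70 genes (0.522%) and below for 85 (0.634%), together 155 (1.16%). Among them, chosen here after their values were seen, were Gap43, a growth cone protein, at 406 to 422 CPM with saline and 432 to 494 CPM with ketamine, and Rps6kb1, the S6 kinase that mTOR activates, at 39.4 to 41.4 and 36.4 to 38.7 CPM. Both had a fitted 95% interval that includes 0.

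Genes of MSN identity and of dopamine and adenosine signalling showed small differences. Adora2a had 1025, 850, 808, 1063 and 776 CPM with saline and 795, 967, 786 and 789 CPM with ketamine. Ketamine library 22 was set apart from the other 3 of its group, and the log2 fold change of −0.04 had a 95% interval that spans 0. Rgs9, which speeds the switching off of the G proteins coupled to the D2 receptor, had 378, 311, 329, 399 and 309 CPM with saline and 321, 318, 289 and 284 CPM with ketamine. All 4 ketamine values were below the saline mean of 345 ± 41.0 CPM and 2 were below the lowest saline library, at a log2 fold change of −0.13 (SE 0.057, unadjusted p = 0.0439, edgeR adjusted p = 0.999) and −0.033 in a single model of all 39 libraries. Adcy5, the main striatal adenylyl cyclase, had 837 ± 60.7 and 746 ± 95.5 CPM. Gad1, which makes GABA, had 1064 ± 81.8 and 1111 ± 90.6 CPM. Of the 4 paired genes of dopamine and cAMP signalling (Rgs9, Adcy5, Rgs4 and Rgs2), 0 were called, 1 had an unadjusted p under 0.05, and the median log2 fold change was −0.0749 against −0.00152 over all genes (−0.139 and −0.00521 without surrogate variables).

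None of the 8 paired GABA receptor genes was called, and 1, Gabrb2, had an unadjusted p under 0.05. Their log2 fold changes ran from −0.18 to −0.02 with a median of −0.0749, all 8 negative, but without surrogate variables 2 of the 8 were positive and the median was −0.0316. Gabrb2, the beta2 subunit of the GABA-A receptor, had 22.9, 49.4, 29.8, 21.0 and 57.7 CPM with saline and 17.3, 31.3, 45.5 and 68.1 CPM with ketamine. It varied 3.93-fold among the 9 libraries, and the lowest and the highest of them were both ketamine libraries (6 and 38), with log2 fold changes of −0.18 with and 0.16 without surrogate variables. Gabbr1, a metabotropic GABA receptor subunit, stayed between 1326 and 1518 CPM in all 9. Of the 3 ionotropic glutamate receptor genes paired, Grin2c, an NMDA receptor subunit, had 14.5 ± 1.74 and 14.3 ± 4.17 CPM and Grik2, a kainate receptor subunit, 75 ± 3.41 and 73.3 ± 5.83 CPM. Grik1, the other kainate receptor subunit of the list, had 19.7, 11.7, 9.09, 7.59 and 17.2 CPM with saline and 17.5, 14.3, 20.1 and 17 CPM with ketamine, all 4 above the saline mean of 13.1 ± 5.21 CPM but overlapping the saline range. No member of that list had an unadjusted p under 0.05, and the same held for the metabotropic receptor Grm4 (94.5 ± 7.50 and 83.1 ± 10.0 CPM).

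Immediate early genes report recent activity, here after 30 min in the chamber. Of 51 such genes listed, 8 could be paired and 7 were tested, so most of the list was not examined. Fosb, Fosl2 and Nr4a3 were not among the genes tested. Of the 7 tested, 0 were called and 0 had an unadjusted p under 0.05. Their median log2 fold change was 0.00119, with 4 of the 7 on the higher side. Without surrogate variables the median was −0.113 and 1 of the 7 was on the higher side. Egr2, an activity-induced transcription factor named here after its values were seen, had 26.6, 30.7, 34.7, 29.6 and 12.6 CPM with saline and 13.0, 36.2, 14.6 and 21.4 CPM with ketamine. The lowest of its levels was in a saline library (37), the highest in a ketamine library (22), and the groups overlapped. Btg2, an antiproliferative early response gene, had 6.35 ± 2.29 and 4.60 ± 0.475 CPM, and Nptx2, a secreted pentraxin that clusters AMPA receptors, 24.4 ± 10.8 and 18.8 ± 5.81 CPM.

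All 6 paired cytosolic ribosomal protein genes were on the higher side, with log2 fold changes from 0.025 to 0.31 and a median of 0.0792, and they were so too without surrogate variables and with DESeq2 size factors, but 0 were called and 1 had an unadjusted p under 0.05. That gene, Rpl10a, had 94.5, 97.1, 98.3, 104 and 93.2 CPM with saline and 109, 104, 97.7 and 103 CPM with ketamine, at 0.12 (SE 0.047). Of 10 oxidative phosphorylation genes 9 were on the higher side in the same 3 fits, with a median of 0.0431 and 0 at an unadjusted p under 0.05. Atp5f1b, the beta subunit of ATP synthase, had 1957 ± 122 CPM with saline and 2052 ± 60.6 CPM with ketamine. Ketamine library 6, which had high glial markers, was the highest of the 9 for Rpl10a, Rpl24, Rplp0, Atp5pd, Cox6a1 and Atp5f1b, but not for Ndufv3. For Rplp0 it had 223 CPM, and the other ketamine libraries had 190 to 194 CPM against a saline mean of 193 CPM. The direction of these 2 lists without library 6 was not tested. Over all genes 6614 of 13414 were on the higher side. The m6A methylation genes Ythdc1, a nuclear reader (106 ± 1.29 and 100.3 ± 3.38 CPM), and Prrc2a (540 ± 27.8 and 527 ± 51.0 CPM) were not called. Nor were the mTOR pathway genes Rps6kb1 (above), Rptor (97.1 ± 3.21 and 97.5 ± 10.5 CPM) and Gsk3b (42.7 ± 5.47 and 39.8 ± 9.61 CPM).

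**Figure D4:**
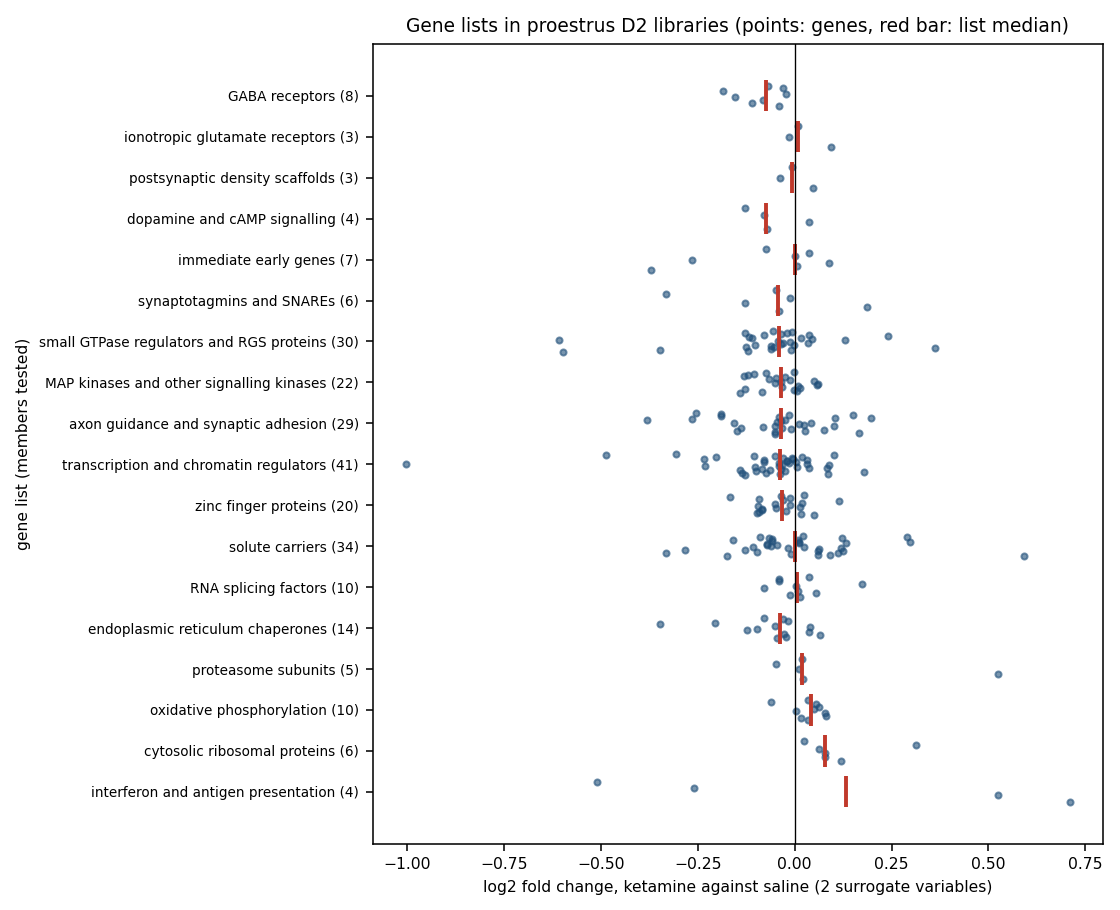
Log2 fold change with 2 surrogate variables (x axis) of every tested member (points) of 18 gene lists (y axis, number of members in brackets), with the list median as a red bar. Most members lie within 0.25 of 0, ribosomal protein genes on the higher side and GABA receptor genes on the lower side, and 0 members were called.

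Among genes of vesicle fusion and signalling, 0 were called. The counts of list members at an unadjusted p under 0.05 stand beside 3.35% of all genes at that p, 1.54% on the higher and 1.81% on the lower side, and members named for that p were chosen after their values were seen. Of 6 SNARE and related genes 1 had an unadjusted p under 0.05, Stx6, a SNARE of the trans-Golgi network and endosomes. It had 122, 110, 118, 130 and 116 CPM with saline and 105, 115, 100.2 and 99.1 CPM with ketamine, at −0.13 (SE 0.052), and 3 of 4 ketamine libraries were below the lowest saline library. Of 30 regulators of small GTPases and G proteins, a list added after the files were seen, 1 (Rasl11b) was on the higher and 3 (Arhgef6, Arhgap44 and Rgs9) on the lower side at an unadjusted p under 0.05, and the median was −0.0394. The 22 signalling kinases had a median of −0.0339, with 1 gene at that p, Camkk2 (a kinase that calcium and calmodulin activate, 183 and 160 CPM on average), on the lower side. The 29 axon guidance and synaptic adhesion genes had a median of −0.0362 and 0 genes at that p. The 41 transcription and chromatin regulators had a median of −0.0374, with Bcl6 on the higher side and Etv5 and Pds5a on the lower side at that p. These 3 lists were added at the same stage. The median of the adhesion list turned to 0.00117 without surrogate variables. Of 34 solute carrier genes 0 had an unadjusted p under 0.05, and 17 were on each side. Of 4 interferon and antigen presentation genes tested, Mx2 was on the higher side at that p and Tap2, a subunit of the transporter that loads peptides onto MHC class I, on the lower side, at 4.46 ± 1.14 and 3.78 ± 0.812 CPM and log2 fold changes of −0.51 with and −0.25 without surrogate variables. In a wider list of 13 such genes taken by symbol after the files were seen, RT1-S3 was also on the lower side at that p.

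The remaining lists held 0 called members as well. Of the hormone signalling genes only the orphan estrogen-related receptor Esrrg was tested, at 11.4 CPM with saline and 14.4 CPM with ketamine on average. The 4 purine receptor genes, a list added after the files were seen, held 1 gene at an unadjusted p under 0.05, P2rx4, an ATP-gated channel, at 15.6 and 18.8 CPM. The 14 endoplasmic reticulum chaperone genes, added likewise, held Qsox1 at that p and 3 members on the higher side, or 6 without surrogate variables. The 20 zinc finger genes held Zfp68 at that p. No member passed that p among 10 splicing factors, 11 collagens and laminins, 5 proteasome subunits, 5 potassium channels, 4 heat shock genes, 3 integrins, or Cacna1e, the calcium channel gene that was paired (25.1 and 19.0 CPM).

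Each difference was then set beside the same contrast in diestrus D2 and in proestrus D1 libraries, which share no library with it. Ketamine against saline gave 0 of 13455 genes (0%) at an adjusted p under 0.1 in diestrus D2, with 390 (2.90%) at an unadjusted p under 0.05, and 1 of 13183 (0.00759%) in proestrus D1, with 727 (5.51%). Both were fitted here with edgeR only. The study, with DESeq2 and surrogate variables, reported more genes in each of the 3 comparisons, and most in proestrus D1. The gene called in proestrus D1, named here after its value was seen, was Col11a2, a fibrillar collagen chain, and it was higher with ketamine there. In proestrus D2 it had 27.8 ± 9.59 CPM with saline and 23.6 ± 12.5 CPM with ketamine. Without library 39, a diestrus saline library of 2396517 counts, the diestrus D2 count stayed at 0 with 475 at an unadjusted p under 0.05. ENSRNOG00000050233 had log2 fold changes of 0.31 (SE 0.29) in diestrus D2 and 0.23 (SE 0.19) in proestrus D1, beside 0.84 in proestrus D2. Zfp68 had 0.10 (SE 0.076) in diestrus D2 and −0.04 (SE 0.051) in proestrus D1, and Il3ra 0.21 (SE 0.24) and 0.14 (SE 0.23). RGD1304622 was on the lower side in all 3, at −0.53 in proestrus D2, −0.28 (SE 0.20) in diestrus D2 and −0.60 (SE 0.13, unadjusted p = 0.000638, edgeR adjusted p = 0.532) in proestrus D1. Its levels overlapped between the groups in proestrus D2, at 6.89 to 12.8 CPM with saline and 3.38 to 9.22 CPM with ketamine. Other named genes also kept to 1 side in all 3. Among them, in the same order, were Qsox1 (−0.35, −0.19 and −0.15) and RT1-S3 (−0.58, −0.13 and −0.11) on the lower side and Il3ra on the higher side. Igfbp7 was on opposite sides in the 2 stages, at 0.29 in proestrus and −0.24 (SE 0.11) in diestrus D2, but the proestrus value was 0.063 without surrogate variables and −0.026 with blocks.

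**Figure D5:**
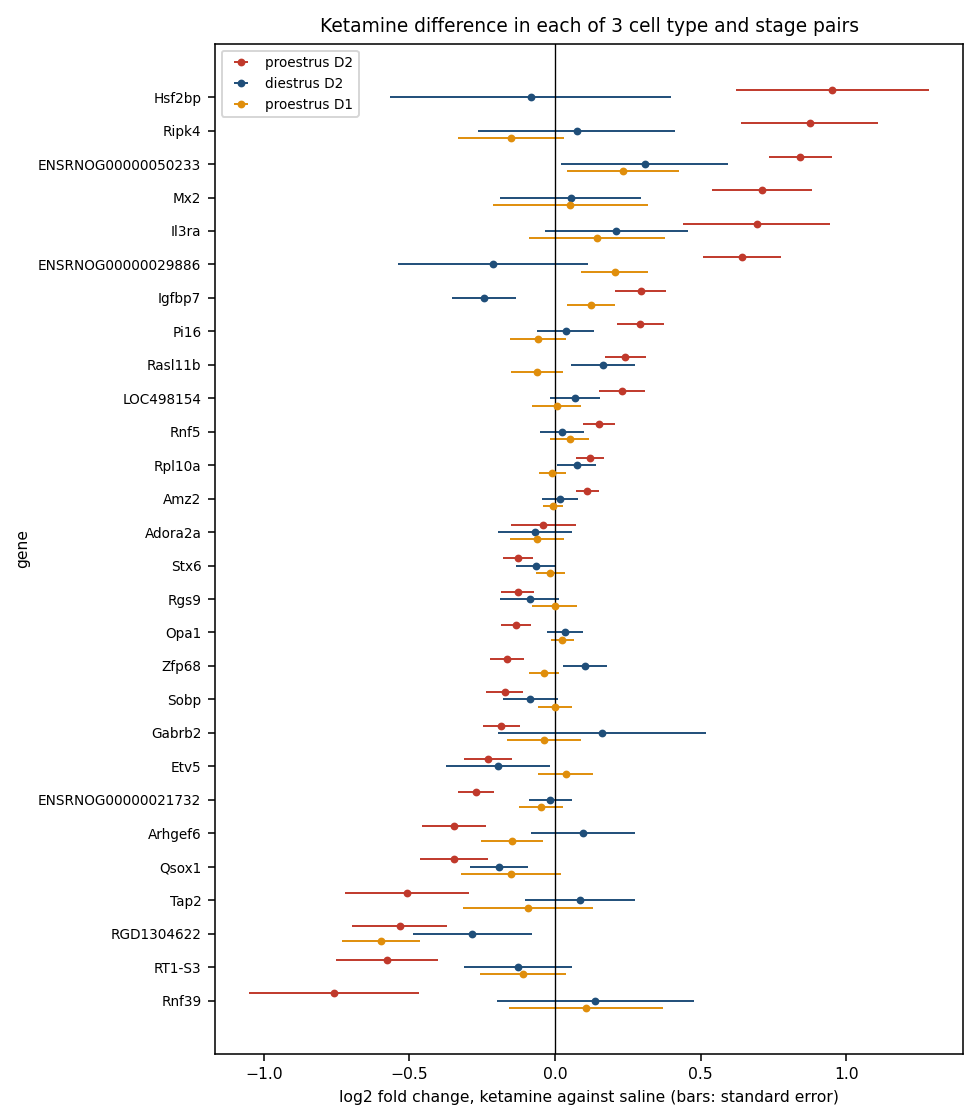
Log2 fold change, ketamine against saline (x axis, bars are the SE), of the named genes (y axis) in proestrus D2 (red), diestrus D2 (blue) and proestrus D1 libraries (orange). The genes were picked by their p in proestrus D2, which by itself sets the red points farther from 0. RGD1304622, Qsox1 and RT1-S3 are among the genes that lie below 0 in all 3.

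The difference between these contrasts was tested as an interaction, proestrus minus diestrus or D2 minus D1. The named genes were picked by their p in proestrus D2, so their interactions are not independent of that choice. The ketamine by cycle stage interaction in D2 libraries called 0 of 13881 genes (0%) with edgeR, with 344 (2.48%) at an unadjusted p under 0.05, and DESeq2 with 2 surrogate variables, run without a filter on low counts on 18849 genes, called 10, of which 1 has a symbol (Tbx4, a T-box transcription factor). The ketamine by cell type interaction in proestrus called 0 of 13774 genes (0%), with 396 (2.87%) at that p, and DESeq2, on 18804 genes, called 7. Without libraries 6 and 21 edgeR called 2, 1 of them Col11a2. Neither set of DESeq2 calls held ENSRNOG00000050233, whose interaction was 0.12 (SE 0.37, edgeR adjusted p = 1) with cycle stage and 0.51 (SE 0.33, edgeR adjusted p = 0.998) with cell type. For Zfp68 the interaction with cycle stage was −0.26 (SE 0.079, unadjusted p = 0.0033, edgeR adjusted p = 1) and for Igfbp7 0.41 (SE 0.14, edgeR adjusted p = 1). In edgeR's fits no interaction of a gene named by the rule passed the threshold, which does not show that the responses were alike.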

How the data were processed

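Polyribosome-bound mRNA was measured in 39 IP libraries, of which the 9 of proestrus D2-Cre females form the comparison here. Per the labels and the study's methods, the authors trimmed reads with fastp 0.23.4, checked them with FastQC 0.12.1, quantified transcripts of mRatBN7.2 with Salmon 1.10.2 (sequence and GC bias corrections) and summed them per gene. The values deposited by the authors are expected counts, already rounded and without normalisation. Salmon can divide reads among near-identical genes, so such genes are uncertain. Columns were matched by library number, and 0 columns lacked a sample.

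Genes were filtered by edgeR's filterByExpr (minimum count 10), normalised by TMM and tested with the quasi-likelihood test with 2 surrogate variables from svaseq and Benjamini-Hochberg adjustment over all genes (called under 0.1). The study used DESeq2 1.42.1 with surrogate variables and does not state their number. Versions were R 4.3.3, edgeR 4.0.16, sva 3.50.0 and DESeq2 1.42.0. The SE is the log2 fold change over the root of the F statistic, and the 95% interval uses its total degrees of freedom. CPM use TMM factors over all 39 libraries, and single genes were compared by 2-sided exact permutation tests.

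Symbols came from identifier and symbol pairs in the study's supplementary tables. The named genes were the called gene, the 10 paired genes of lowest p in each direction, and for each list the called members, the 3 of lowest p and the most abundant. From the lists a fold change is given only for members with an unadjusted p under 0.05 and for Adora2a, the check of the cell type, and others are given by level. At most 2 genes in each direction were named by identifier. The libraries and lists were chosen with earlier results of these data known. No set test was run. The lists of ankyrin and spectrin genes, opioid, cannabinoid and monoamine receptors, glutamatergic and D1-MSN markers, mitochondrially encoded genes and genes the study names had 0 paired members. Steps were tested on simulated counts. Values of 2 single list members are not reported here.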

Additional observations from a re-analysis of the deposited data

Results flagged for a closer look

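In groups of 4 or 5 libraries, 6 of 76 sets of values held a library far from the others, where chance alone flags about 1 in 20. Adora2a, which is also the whole of the paired D2-MSN markers, was at 966.8 CPM in ketamine library 22, against 795.3 CPM in the next of its group. The summed astrocyte markers were highest in ketamine library 6 (175.3 CPM, next 125.3) and in saline library 21 (214.9 CPM, next 142.9). Saline library 21 was also apart for endothelial and mural markers (13.89 CPM, next 6.676) and for oligodendrocyte markers (370.3 CPM, next 223 CPM). The part of these cells in the differences between treatments was not tested beyond the fits without both libraries.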

How the results depend on the processing

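The count of 1 gene called, higher with ketamine, became 0 at a threshold of 0.05, with no or 1 surrogate variable, with DESeq2 without surrogate variables, with blocks of 8 neighbouring library numbers, in a single model of all 39 libraries and, chosen after the data were seen, without libraries 6 and 21. It became 2 (1 higher, 1 lower, ENSRNOG00000065214 being the second) with the 3 surrogate variables num.sv gave and with no filter. Leaving out single libraries gave 0 to 1. ENSRNOG00000050233 was the called gene in each fit with a call, and its log2 fold change ran from 0.41 to 0.89. The interaction with cycle stage went from 0 to 10 genes with DESeq2 and 2 surrogate variables, which also lacked the filter on low counts, and that with cell type to 7 in that fit, to 1 with num.sv and to 2 (both lower, 1 of them Col11a2) without libraries 6 and 21. Of 29 genes with a fold change in the text, 26 kept its sign in every fit run. Their sizes moved more: without ketamine library 22, Mx2 went to 0.42, ENSRNOG00000029886 to 0.37, Rasl11b to 0.15, Rnf5 to 0.050, Etv5 to −0.37 and Stx6 to −0.21, without saline library 5 Etv5 to −0.14 and Rpl10a to 0.080, without ketamine library 6 Opa1 to −0.088, and with blocks Mx2 to 0.0086 and Arhgef6 to −0.040. Gabrb2 turned to 0.16 without surrogate variables, 0.17 with DESeq2 without them and 0.26 with blocks, and Igfbp7 to −0.026 with blocks. Adora2a turned to 0.016 with num.sv, 0.055 in the single model, 0.028 without libraries 6 and 21, and −0.19 to 0.065 leaving out single libraries. The cause was not tested. Library numbers are not shared between groups and pair no rats, so the only such fit was the block of neighbouring numbers, which called 0 genes.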
